A study of Mus musculus with 18 samples.

Results

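Wild-type and Daxx-null mouse embryonic stem cells were compared in 2 cultures to find where the effect of losing Daxx depends on the state of the cell. The quantity described is a difference of differences: Daxx-null minus wild type after retinoic acid, less Daxx-null minus wild type in serum, on log2 FPKM. The samples were chosen by their genotype and culture labels, which gave 12 of the 18 libraries of the series, 3 in each of 4 groups. All 12 derive from E14Tg2A, a male embryonic stem cell line, and the Daxx-null cells are described as 1 line without a functional copy of the gene. The serum groups, wild type and Daxx-null, were held in medium with fetal serum and leukaemia inhibitory factor (LIF, 1000 units/mL). The retinoic acid groups, wild type and Daxx-null, spent 24 h in the same medium without LIF and then 4 days without LIF with 10 µM retinoic acid. The remaining 6 libraries, grown in 2i medium with vitamin C, enter only an alternative fit. With 1 line, the missing gene and anything else that sets this line off from its parent cannot be told apart, and no source used here names the deleted part of Daxx. Replicates are called independent without a word on what separated them, so each p-value reflects only the scatter among these samples.

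Daxx is a histone chaperone that works with the remodeller Atrx to place the histone variant H3.3 at repeats, telomeres and other heterochromatin, and it also recruits silencing enzymes. In stem cells it is known for helping to keep endogenous retroviruses silent. Retinoic acid binds nuclear receptors, shuts down the pluripotency network and switches on Hox genes and neural and endodermal programmes.

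Depth was inferred from the smallest steps of the values and ranged from 84.2 to 141.7 M counts (117 ± 8.35 Daxx-null against 89.6 ± 4.67 wild type in serum, 130 ± 12.7 against 126 ± 13.6 in retinoic acid, SD, n = 3). Daxx itself was low in all 6 Daxx-null libraries, with an FPKM of 68.7, 72.2 and 73.7 against 307, 319 and 353 in serum and of 62.7, 61.7 and 60.8 against 238, 242 and 265 in retinoic acid. Its own difference between cultures was not called (0.18 (SE 0.10, adjusted p = 0.21)). Summed RNA of the Y-linked genes was nearly absent from Daxx-null cells in both cultures (2.48 ± 0.265 against 221 ± 55.2 FPKM in serum, 1.78 ± 0.722 against 160 ± 5.01 in retinoic acid). This absence goes with the genotype in each culture, so it cannot be told apart from the loss of Daxx. The pluripotent markers Pou5f1, Nanog, Zfp42 and Esrrb summed to 14347 to 14975 FPKM in wild-type serum and to 55.5 to 133 after retinoic acid, where Daxx-null cells held 17.4 to 18.7. The summed neural progenitor markers Pax6, Sox1 and Nes went from 111 to 129 FPKM in wild-type serum to 439 to 498 after retinoic acid, and endoderm markers from 58.1 to 75.4 up to 518 to 942. The summed neuron markers Tubb3, Dcx, Elavl3 and Map2 held 485 to 554 and 338 to 501 FPKM in wild-type serum and retinoic acid. That sum is carried mostly by Tubb3 (group means of 449 and 298), whereas Dcx (0.008 and 20.4) and Map2 (12 and 61.2) were higher after retinoic acid. Wild-type retinoic acid replicate 3 stood apart, with 73.9 FPKM of Pou5f1 against 13.8 and 18.6 in its sisters, and with 10164 FPKM summed over 29 endoderm genes against 5759 and 5645, and values without it are given beside several of the results that rest on it. In bulk RNA, fewer cells of a type and less RNA per cell cannot be told apart.

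The effect of Daxx loss differed between the cultures for 3669 of 16913 genes tested (21.7%) with limma at an adjusted p under 0.05. For 2234 of them the difference was above 0 (13.2%), meaning that the Daxx-null cells stood higher relative to wild type in retinoic acid than in serum, and for 1435 it was below 0 (8.48%). Differences above 0 were thus 60.9% of calls, but 51.8% under quantile normalization (1773 above and 1653 below 0), 52.1% under median-ratio scaling (1903 and 1748) and 51.4% in the normalised values of the authors (1764 and 1665). The serum effect alone was called for 7470 genes (44.2%), with 2534 genes higher in Daxx-null cells (15%) and 4936 genes lower (29.2%). The retinoic acid effect was called for 926 genes (5.48%), 222 higher (1.31%) and 704 lower (4.16%). Of the genes called in either culture, 535 were called in both, which is 7.16% of the serum genes and 57.8% of the retinoic acid genes. Of the 535, 459 (85.8%) had the same sign in both cultures and 76 opposite signs, and for 379 the difference was not called. The median difference over all genes was 0.06, against a median effect of -0.12 in serum and -0.04 in retinoic acid. Quantile normalization moved the serum median to 0, so that 49.7% of called serum genes were higher instead of 33.9%, and 37.5% instead of 24.0% in retinoic acid. Median-ratio scaling gave 45.6% in serum, and the normalised table of the authors gave 49.8% in serum and 37.8% in retinoic acid.

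The retinoic acid calls depended on single libraries. Genes higher there numbered 71 without Daxx-null retinoic acid replicate 2 and 127 without replicate 1, and 100, 96 and 119 without wild-type retinoic acid replicates 1, 2 and 3. They numbered 130 and 137 without Daxx-null serum replicates 2 and 3 and 145 without wild-type serum replicate 1. Genes lower there numbered 462 and 373 without Daxx-null retinoic acid replicates 1 and 2, and 468 and 435 without wild-type retinoic acid replicates 1 and 3. Each culture fitted alone gave 2447 higher and 4564 lower in serum, but 61 and 293 in retinoic acid. With the 6 libraries of 2i in the fit the difference was called for 889 genes higher and 615 lower.

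Sorted by where the effect was called, 3147 of the 3669 genes showed it in serum only, 230 in retinoic acid only, 76 in both cultures with opposite signs, and 80 in both with the same sign. In the other 136 neither effect passed by itself. The 379 genes called in both cultures without a called difference lie outside these classes. Among the genes of serum only, Daxx-null cells stood higher for 1101 and lower for 2046. That split was 1352 and 1506 under quantile normalization, 1382 and 1688 under median-ratio scaling, and 1363 and 1505 in the normalised values of the authors. For 2934 of the 3147 the 95% interval of the effect in retinoic acid lay inside -1 to 1 on the log2 scale, and for 1944 inside -0.5 to 0.5. The median serum effects of the 1101 and the 2046 were 0.67 and -0.86. An effect of that size can lie inside the wider bounds, so the 2934 do not show that the effect was absent. Of the genes of retinoic acid only, 42 were higher and 188 lower. For 188 of the 230 the interval of the serum effect lay inside -1 to 1, and for 85 inside -0.5 to 0.5. Of the genes of serum only 590 had a mean FPKM under 10 in both retinoic acid groups, and 72 of those of retinoic acid only had one in both serum groups. The share of genes that wild-type cells held at least 4-fold higher in serum than in retinoic acid was 28.7% of the 188 genes lower in retinoic acid only (54 genes) and 7.78% of all genes tested. Leaving out Daxx-null retinoic acid replicate 2 took the genes of retinoic acid only to 131 (12 higher and 119 lower) and those of opposite sign to 34. The 42 were also 25 without Daxx-null retinoic acid replicate 1, 23 and 27 without Daxx-null serum replicates 2 and 3, and 20, 17 and 26 without wild-type retinoic acid replicates 1, 2 and 3. They were 68 under quantile normalization, 65 at a pseudocount of 5 and 71 in the normalised values of the authors. The genes of opposite sign numbered 121 without Daxx-null retinoic acid replicate 3, 45 and 44 without Daxx-null serum replicates 2 and 3, 43 and 37 without wild-type retinoic acid replicates 1 and 3, and 47 without wild-type serum replicate 1.

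**Figure D1:**
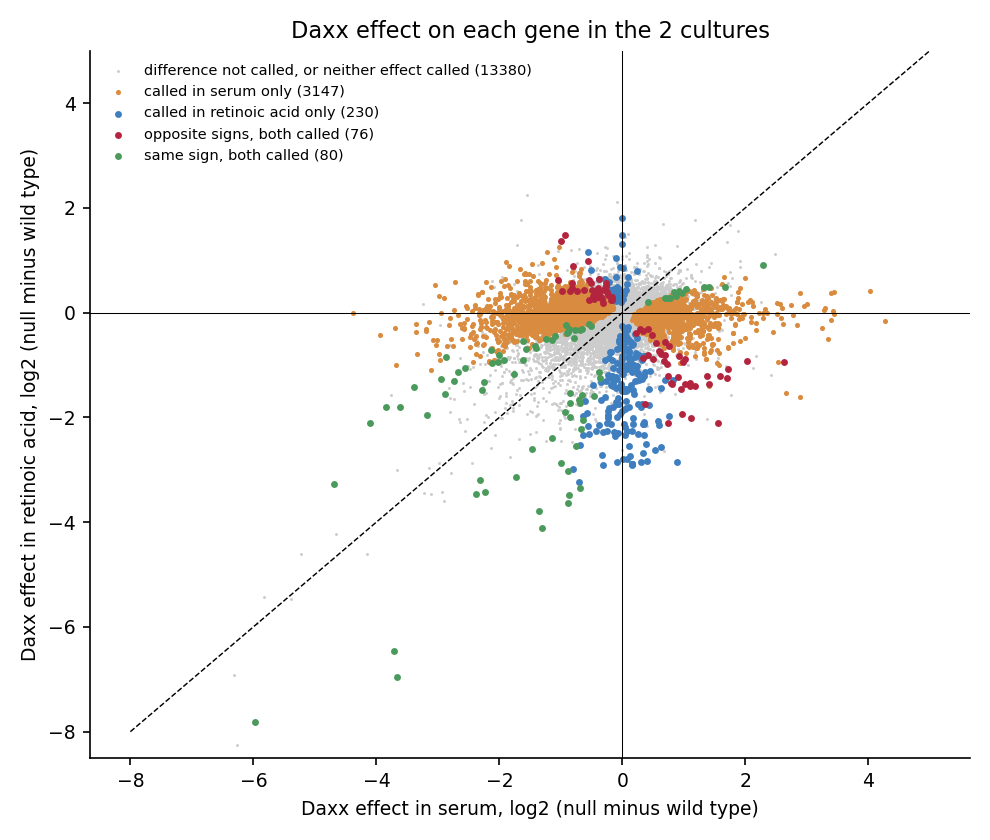
Each point is 1 of the 16913 genes tested, with the Daxx effect in serum on the x axis and in retinoic acid on the y axis (both log2, Daxx-null minus wild type), coloured by class, and the dashed line marks equal effects. The 3147 genes called in serum only spread along the horizontal line, the 230 of retinoic acid only fall mostly below 0, and the 76 of opposite sign lie in the upper left and lower right.

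The genes of opposite sign were 41 that were higher in Daxx-null serum cells and lower after retinoic acid, and 35 with the reverse pattern. In 74 of the 76 all 3 libraries of one genotype lay beyond all 3 of the other in each culture, but both effects reached 2-fold in only 12. Genes called in both cultures are likely to separate in this way, so the separation is no further support. For the genes that lead each pattern below it was also a condition of being named. Without Daxx-null retinoic acid replicate 2 the counts of the 2 patterns were 23 and 11, and without Daxx-null retinoic acid replicate 3 they were 49 and 72. They were 25 and 20 or 25 and 19 without Daxx-null serum replicate 2 or 3, 25 and 18 or 23 and 14 without wild-type retinoic acid replicate 1 or 3, and 26 and 21 without wild-type serum replicate 1. The 35 alone went to 18 and 23 without wild-type retinoic acid and serum replicate 2. The first pattern was led by Lgals9 (mm9 chromosome 11, 78776481 to 78798426), which encodes galectin-9, a sugar-binding protein of immune signalling. Its FPKM in serum was 18.1, 19.7 and 17.3 in wild type and 73.0, 45.9 and 49.9 in Daxx-null cells. After retinoic acid it was 4.82, 3.86 and 13.4 in wild type and 1.29, 0.949 and 1.02 in Daxx-null cells. Daxx-null libraries were thus all higher in serum and all lower after retinoic acid, with effects of 1.56 and -2.12 and a difference of -3.67 (SE 0.49, adjusted p = 5.1e-04). Without wild-type retinoic acid replicate 3, the highest of its group, the difference was -3.17.

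Epas1, which encodes the hypoxia-inducible factor HIF-2 alpha, stood at 69.2, 58.7 and 60.2 FPKM in wild-type and 176, 160.4 and 165 in Daxx-null serum. It stood at 25.6, 20.4 and 49.7 and 18.1, 8.38 and 9.09 after retinoic acid, where wild-type replicate 3 was again high. The groups did not overlap in either culture, and the difference was -2.78 (SE 0.43, adjusted p = 0.0012), or -2.41 without that replicate. Its effects were 1.41 in serum and -1.37 after retinoic acid (adjusted p = 0.023 for the latter). The effect after retinoic acid was smaller without that replicate, and whether it stayed called is not given here. Zfp936, a zinc finger gene, held 75.6, 84.8 and 61.4 FPKM in wild-type serum, 260.2, 222 and 240.4 in Daxx-null serum, 17.1, 14.5 and 11.2 in wild-type and 6.42, 5.4 and 5.14 in Daxx-null retinoic acid. Its libraries were even within each group, and the difference was -2.95 (SE 0.23, adjusted p = 3.0e-05).

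Meox1, a homeobox gene of the somites, held 2.05, 4.21 and 3.23 FPKM in wild-type and 9.17, 8.83 and 8.14 in Daxx-null serum, then 123, 138 and 109 and 36.4, 43.7 and 93.2 after retinoic acid. Daxx-null replicate 3 lay nearest to wild type there, and the difference was -2.58 (SE 0.43, adjusted p = 0.0017). Rbm47, which encodes an RNA-binding protein of epithelial cells, held 48.7, 49.6 and 41.5 against 96.8, 111 and 110.5 FPKM in serum and 10.9, 8.02 and 24.3 against 4.93, 4.69 and 4.06 after retinoic acid, a difference of -2.59 (SE 0.41, adjusted p = 0.0013), or -2.14 without wild-type retinoic acid replicate 3. Its effect after retinoic acid (-1.41, adjusted p = 0.016) was also smaller without that replicate, and whether it stayed called is not given here. Sox7, an endoderm and vessel regulator, Phlda2, an imprinted growth inhibitor, and Ddx58, the RNA sensor RIG-I, shared the pattern, with serum effects of 1.10, 0.67 and 0.60 and retinoic acid effects of -1.40, -0.93 and -0.72. Without wild-type retinoic acid replicate 3 their differences were -2.12, -1.62 and -1.25, all called, but the retinoic acid effects of Sox7 (-1.02, adjusted p = 0.075) and Ddx58 (-0.66, adjusted p = 0.068) were not.

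The reverse pattern, lower in Daxx-null serum cells and higher after retinoic acid, was led by Nmnat2 (chromosome 1, 154802231 to 154966391), the NAD-synthesizing enzyme of axons. Its FPKM was 72.4, 69.5 and 76.1 in wild-type and 47.6, 35.3 and 32.6 in Daxx-null serum. In retinoic acid its values were 7.14, 6.40 and 6.19 in wild type and 29.7, 21.8 and 10.8 in Daxx-null cells. All Daxx-null libraries lay below wild type in serum and above it after retinoic acid, although replicate 3 was the lowest of the Daxx-null group, and the difference was 2.41 (SE 0.39, adjusted p = 0.0016). Without that replicate it was 2.81.

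Arhgdig, which encodes an inhibitor of small GTPases in brain, held 42.1, 52.8 and 36.2 against 28.9, 30.4 and 29.0 FPKM in serum and 13.4, 15.8 and 16.8 against 26.2, 22.8 and 22.3 after retinoic acid, a difference of 1.16 (SE 0.20, adjusted p = 0.0023). Nuak2, a kinase of the AMPK family, held 73.8, 68.4 and 63.6 against 37.2, 42.0 and 36.6 and 65.7, 62.5 and 57.1 against 96.4, 88.4 and 74.4, a difference of 1.3 (SE 0.15, adjusted p = 2.3e-04). In both genes, wild type first and Daxx-null second in each pair, no library of one genotype overlapped the other in either culture, as the naming rule required. Msmo1, of the same pattern, belongs to cholesterol synthesis and is described with that pathway.

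**Figure D2:**
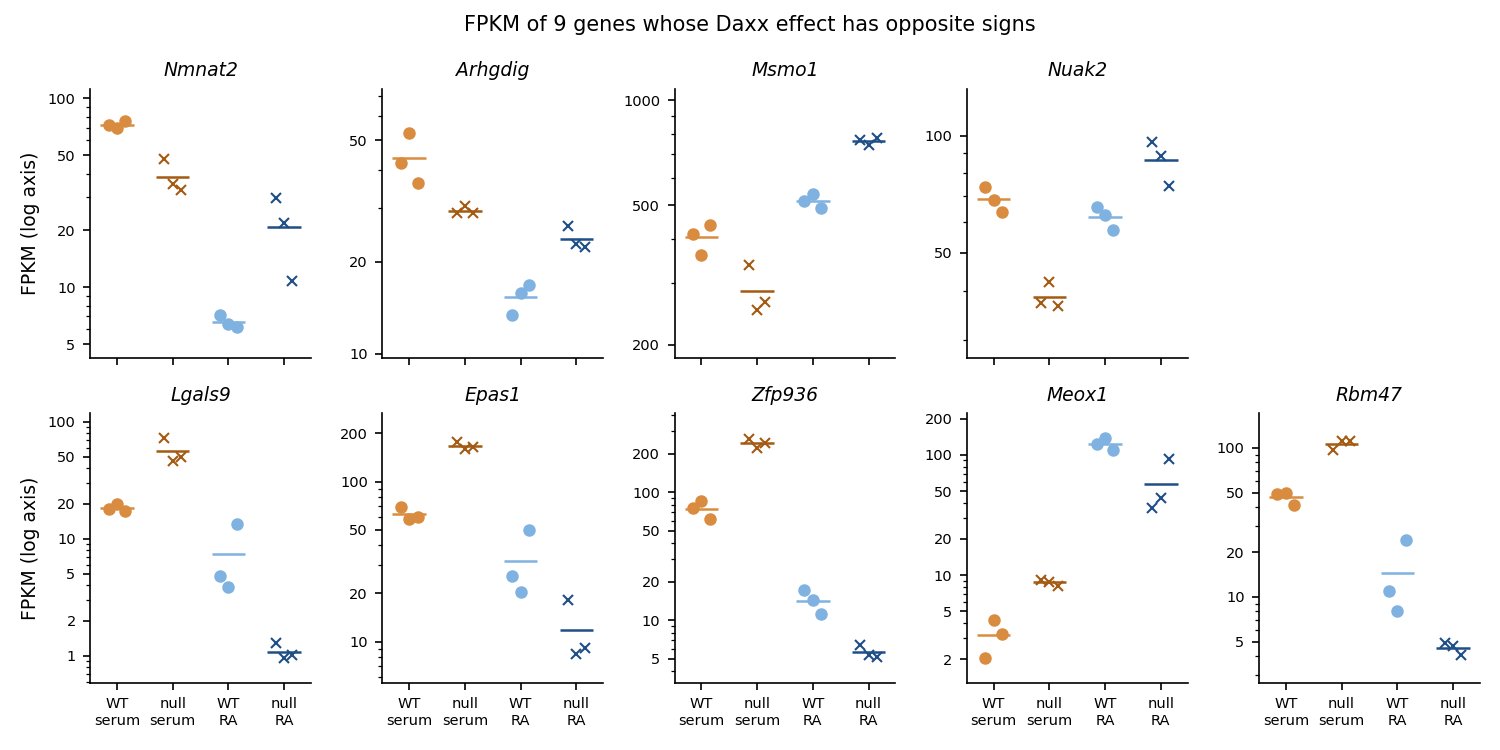
FPKM on log axes of 9 genes whose Daxx effect has opposite signs, in wild-type (WT, circles) and Daxx-null (crosses) libraries of serum and retinoic acid (RA), 3 per group, with the group mean as a line. In the upper row the crosses lie below the circles in serum and above them in retinoic acid, and in the lower row the order is reversed, with wild-type retinoic acid replicate 3 high for Lgals9, Epas1 and Rbm47.

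Genes of glycolysis and of the response to low oxygen were lower in Daxx-null cells in serum and not after retinoic acid. In cells short of oxygen, HIF transcription factors raise glucose uptake, the enzymes that break glucose down to lactate, and genes of mitochondrial removal. Of 32 genes tested, 30 fell in serum and none rose, against 29.2 and 15% of all genes. In retinoic acid 1 rose and none fell, against 1.31 and 4.16%. The difference was above 0 in 27 and below 0 in none, against 13.2% of all genes above 0. The median effect was -0.99 in serum, 0.09 in retinoic acid and 1.00 for the difference, against 0.06 for the difference over all genes. Counts of the difference were 25 under quantile normalization and 25 under median-ratio scaling, 21 without Daxx-null retinoic acid replicate 2 and 17 with the 2i libraries in the fit, none of them with a member below 0.

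Among targets of the HIF factors, Bnip3 (chromosome 7, 146082519 to 146101189), encodes a receptor for the removal of mitochondria. In serum its FPKM was 607, 561 and 569.6 in wild-type and 131, 155 and 156 in Daxx-null cells. After retinoic acid it was 101, 86.9 and 62.9 and 83.3, 106 and 117. The genotypes were far apart in serum and overlapped after retinoic acid, with effects of -1.97 and 0.30 and a difference of 2.28 (SE 0.22, adjusted p = 1.0e-04). Ankrd37 (chromosome 8, 47082262 to 47085204), a HIF target of unclear function, held 102, 122 and 95 against 15.8, 37.9 and 42.0 FPKM in serum and 12.9, 15.7 and 10.6 against 14.0, 20.1 and 21.2 after retinoic acid, where the groups overlapped, a difference of 2.31 (SE 0.43, adjusted p = 0.0034). Ddit4, an inhibitor of the growth kinase mTORC1, held 2566, 2907 and 1912 against 277, 699.6 and 590.1 in serum and 376, 455 and 439.6 against 195, 346 and 573 after retinoic acid, a difference of 2.00 (SE 0.52, adjusted p = 0.018). Daxx-null serum replicate 1 was the lowest serum library for both Ankrd37 and Ddit4.

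The promoters of Ankrd37 and Bnip3 are shown because HIF factors bind a short core, ACGTG, next to such genes. They are the 250 bases before the start site from RefSeq, build GRCm38.p6, minus strand, printed 5′ to 3′ with matches to ACGTG on either strand in capitals. Ankrd37 lies at chr8:45999851-46000100 and Bnip3 at chr7:138909507-138909756.
Ankrd37: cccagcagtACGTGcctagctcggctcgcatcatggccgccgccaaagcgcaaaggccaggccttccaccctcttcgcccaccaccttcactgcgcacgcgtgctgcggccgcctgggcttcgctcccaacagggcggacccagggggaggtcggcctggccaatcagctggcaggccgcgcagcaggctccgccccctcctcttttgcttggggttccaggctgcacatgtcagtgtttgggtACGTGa
Bnip3: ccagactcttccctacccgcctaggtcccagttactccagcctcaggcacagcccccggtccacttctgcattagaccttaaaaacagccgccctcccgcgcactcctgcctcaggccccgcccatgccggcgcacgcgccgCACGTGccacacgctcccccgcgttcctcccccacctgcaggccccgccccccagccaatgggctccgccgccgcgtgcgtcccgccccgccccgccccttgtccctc
Both genes were picked by their difference among called members with a single start site and at least 1 match, so a match was fixed in advance. Ankrd37 held 2 matches, 241 and 6 bases before the start. Bnip3 held 2 that overlap on opposite strands and together spell CACGTG. Of the 27 genes called for the difference 26 had a promoter in the table, and 13 of these (50.0%) held ACGTG, against 21.2% of the 12693 tested genes with a promoter. Since these were 75% of all genes tested and 67.8 to 78.2% of each class by culture, no property of promoters was compared between the classes. A match is a run of letters and was not tested for binding. The list holds known targets of the HIF factors, several motifs and lists were looked at, and uncalled members were not compared. The share of 50.0% is thus no result about the difference.

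Along the pathway, the glucose transporter gene Slc2a1 held 1419.5, 2105 and 1986 FPKM in Daxx-null against 3552, 3678 and 3281 in wild-type serum, and 1579, 1428 and 1159 against 1056, 956 and 945 after retinoic acid. Its difference was 1.44 (SE 0.20, adjusted p = 6.6e-04). Hk1, the first enzyme of the pathway, had serum and retinoic acid effects of -1.2 and 0.02. Pfkp, a subunit of phosphofructokinase, had -1.04 and 0.03, Pgk1 -1.09 and 0.05, and Ldha, which makes lactate, -0.43 and 0.39. The largest serum effect of an enzyme was that of the enolase Eno2 (-2.38, with -0.44 after retinoic acid and a difference of 1.95, adjusted p = 0.0022). Its paralogue Eno1 was the single member called higher after retinoic acid (0.39, adjusted p = 0.0071), and it has a near-identical copy, Eno1b, so reads may be split between them. Egln1 and Egln3, the oxygen sensors that mark HIF for destruction, had serum effects of -1.61 and -1.70 and differences of 1.75 and 1.83. The 5 members without a called difference were Slc2a3, Pgam1, Pdk1, Car9 and P4ha2. Of these Slc2a3, Car9 and P4ha2 fell in serum and had values of -0.74, -1.01 and -0.87 after retinoic acid.

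Cholesterol synthesis genes were the only list whose members were called with opposite signs in more than 5 cases. The transcription factor SREBP2, made from Srebf2, raises the enzymes from acetyl-CoA to cholesterol when sterols are low. Of 23 genes tested, 12 fell and 3 rose in serum, against 29.2 and 15% of all genes. In retinoic acid 15 rose and none fell, against 1.31 and 4.16%. The difference was above 0 in 17 and below 0 in none, against 13.2% of all genes above 0. The median effect was -0.32 in serum and 0.41 in retinoic acid. The genes of opposite sign numbered 7, Dhcr7 and Msmo1 among them. There were 6 under quantile normalization and under median-ratio scaling, 4 without wild-type retinoic acid replicate 3 and 1 with the 2i libraries in the fit, where 8 differences were called.

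Dhcr7 (chromosome 7, 151009072 to 151034315), which catalyses the last step to cholesterol, held 270.3, 241 and 239.6 FPKM in wild-type and 134, 139 and 141 in Daxx-null serum. In retinoic acid it held 205, 208 and 197 and 262, 274 and 273. Libraries within each group were close, none overlapped, and the effects of -0.86 and 0.40 gave a difference of 1.26 (SE 0.09, adjusted p = 1.8e-05). Msmo1 (chromosome 8, 67196942 to 67212375), the sterol methyl oxidase, held 416, 361 and 440.2 against 338, 252 and 265 in serum and 513, 538 and 492 against 768, 744 and 782 after retinoic acid, again without overlap, a difference of 1.09 (SE 0.15, adjusted p = 5.1e-04).

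Promoters were picked among called genes of this list with a single start site and at least 1 match to CCAAT. A match was thus fixed in advance. Tm7sf2, first by difference, held 1 match and is not shown. The promoter of Msmo1, the next by difference, is shown. It lies at chr8:64733579-64733828 (GRCm38.p6, minus strand, 250 bases before the start, RefSeq), with CCAAT, a box that SREBP2 targets often carry, in capitals on either strand.
Msmo1: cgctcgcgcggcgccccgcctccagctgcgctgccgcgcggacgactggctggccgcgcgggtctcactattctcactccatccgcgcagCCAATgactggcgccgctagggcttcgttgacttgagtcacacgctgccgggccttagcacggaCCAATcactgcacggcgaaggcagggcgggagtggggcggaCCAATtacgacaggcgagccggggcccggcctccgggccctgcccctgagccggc
It held 3 matches, 160, 96 and 55 bases before the start, and 36.8% of all tested genes with a promoter held at least 1. Of the 17 genes called for the difference 11 had a promoter in the table, too few for a share over the list.

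Other members differed in where the effect lay. Fdps, which makes farnesyl diphosphate, was called after retinoic acid only: 52.3, 59.4 and 63.6 FPKM in Daxx-null against 37.7, 38.0 and 36 in wild type there, and 32.0, 34.5 and 25.6 against 48.1, 39.8 and 32.6 in serum, where the groups overlapped. Its difference was 1.02 (SE 0.21, adjusted p = 0.0055). The squalene synthase gene Fdft1 likewise rose after retinoic acid only (0.67), with a serum value of 0.08. Tm7sf2, a sterol reductase, fell in serum only (-1.12 against 0.23, difference 1.34), as did Insig1, which holds SREBP back (-0.93 against 0.09). Idi1, Sqle and Hsd17b7 rose in both cultures, with differences of 0.33, -0.02 and 0.23 that were not called.

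**Figure D3:**
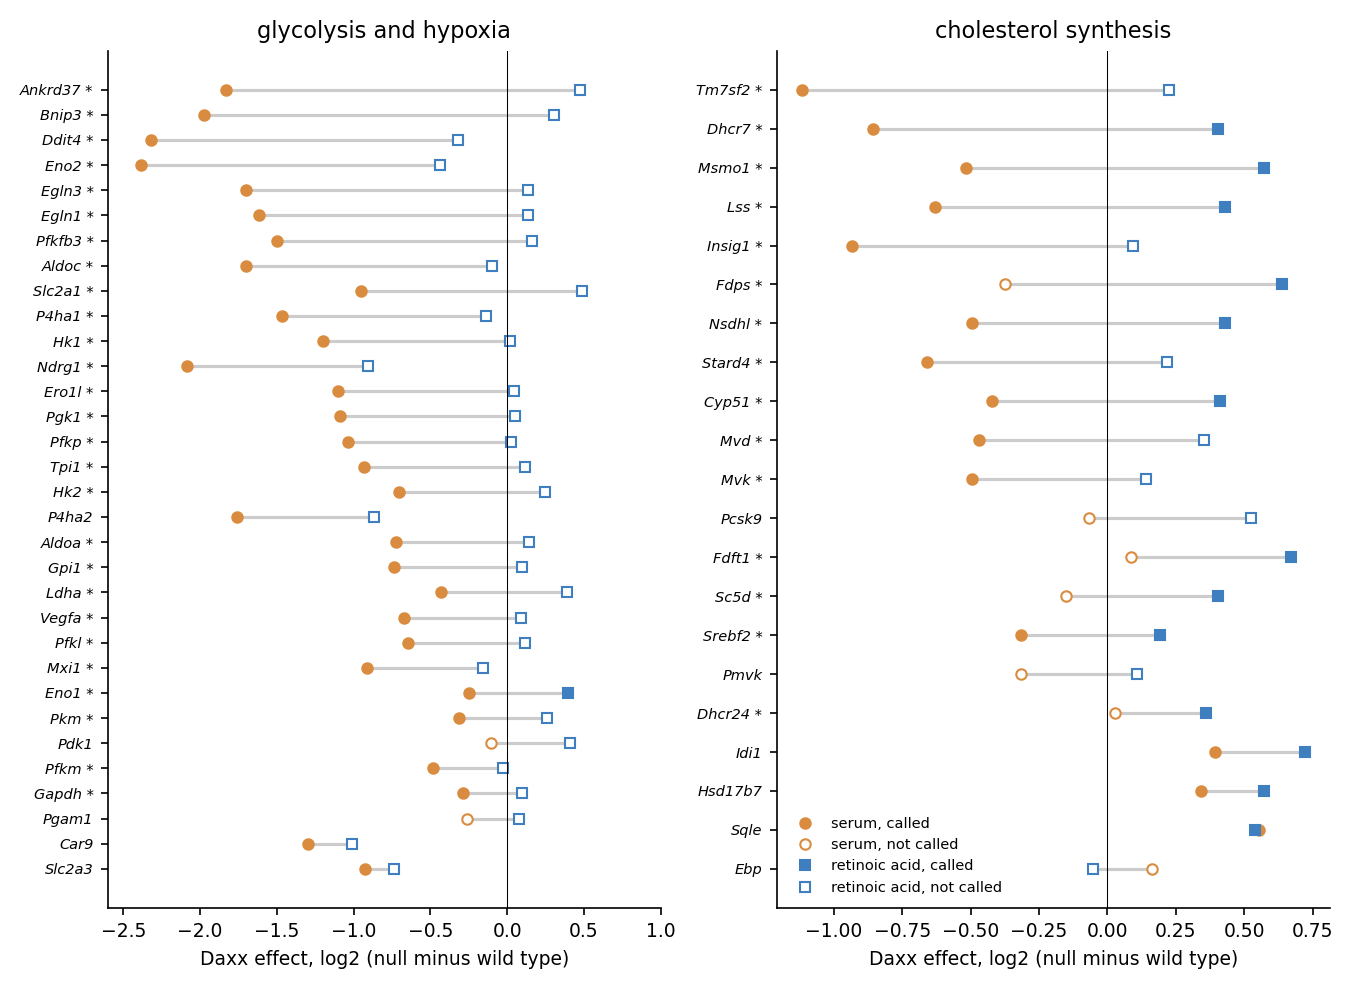
Daxx effect (log2, Daxx-null minus wild type) in serum (circles) and retinoic acid (squares) of the 32 tested glycolysis and hypoxia genes and of tested cholesterol synthesis genes, filled where called, with an asterisk where the difference between cultures was called. Glycolysis genes lie left of 0 in serum and around 0 in retinoic acid, while many cholesterol genes cross from below to above 0.

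Among pluripotency genes the difference lay below 0. In serum 11 of 28 tested rose in Daxx-null cells and 3 fell, against 15 and 29.2% of all genes. In retinoic acid 3 rose and 14 fell, against 1.31 and 4.16%. The difference was below 0 in 13 and above 0 in none, against 8.48% of all genes below 0. The median effect was 0.30 in serum and -0.74 in retinoic acid. Quantile normalization gave 11 below and 1 above 0, and leaving out wild-type retinoic acid replicate 3 gave 14 and 1. Pou5f1 (chromosome 17, 35642977 to 35647722), which encodes Oct4, held 7704, 7975 and 8379.5 FPKM in wild-type and 11170.5, 9292 and 9265 in Daxx-null serum. After retinoic acid it held 13.8, 18.6 and 73.9 in wild type and 2.84, 3.3 and 3.75 in Daxx-null cells. Wild-type replicate 3 was the highest there, and all wild-type libraries lay above all Daxx-null ones. The difference was -3.15 (SE 0.61, adjusted p = 0.0041), and -2.43 without that replicate.

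Zfp42, the marker Rex1, was even within groups, at 2921, 3020.5 and 3048 FPKM in wild-type and 4463, 3577 and 3655 in Daxx-null serum and at 33.9, 32.5 and 45.6 and 10.3, 10.7 and 11.2 after retinoic acid. Its groups did not overlap in either culture and its effects had opposite signs, 0.37 and -1.74, with a difference of -2.11 (SE 0.16, adjusted p = 3.0e-05). Dppa2, which keeps developmental promoters open, held 119, 125 and 119 against 267, 221 and 225 in serum and 9.56, 10.7 and 13.9 against 2.88, 1.76 and 3.39 after retinoic acid. It too reversed (0.97 and -1.93), with a difference of -2.89 (SE 0.27, adjusted p = 7.5e-05). Gdf3 was the third of the list with opposite signs (0.62 and -0.75), although the latter was not called without wild-type retinoic acid replicate 3 (-0.58, adjusted p = 0.1).

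Nanog, Klf2, Dppa5a and Tcl1 fell after retinoic acid only (-1.48, -1.25, -1.70 and -2.26), with serum values of 0.17, 0.29, 0.06 and -0.25. Klf5 and Nr5a2, both of naive cells, rose in serum only (1.41 and 0.69). Not every pluripotency gene followed: Sox2, which neural cells keep, had -0.02 and 0.48, and the RNA-binding gene Lin28a rose in both cultures (0.34 and 0.48). Marker RNA of endoderm was lower in Daxx-null cells in both cultures, and so did not follow the pluripotency genes in serum. There the sum of 8 endoderm markers had a mean of 20.6 FPKM in Daxx-null and 65.3 in wild-type cells. After retinoic acid they summed to 518 to 942 FPKM in wild-type and 287 to 352 in Daxx-null cells. None was at 0 in either retinoic acid group. Blood and glia sums after retinoic acid, at few FPKM, were lower as well. Neuron (338 to 501 and 437 to 755) and neural progenitor sums (439 to 498 and 424 to 660) overlapped, with higher means in Daxx-null cells. Trophoblast, fibroblast, mesoderm and neural crest sums overlapped too. These markers are those of all cell types looked at. Their part in the result was not tested.

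The two-cell-like state is a rare condition of stem cells that resembles the embryo at genome activation. Of 21 of its genes tested, 5 rose and 2 fell in serum, against 15 and 29.2% of all genes. In retinoic acid none rose and 17 fell, against 1.31 and 4.16%. The difference was below 0 in 18 and above 0 in 1, against 8.48% of all genes below 0. In 12 the effect was called in retinoic acid only and in 4 with opposite signs, namely Zscan4b, Usp17ld, Usp17le and Pramef25. The median effect was 0.34 in serum, or -0.04 without wild-type serum replicate 3, and -2.12 in retinoic acid. Summed over the 21 genes, FPKM was 116, 121 and 50.9 in wild-type serum, 72.9, 127 and 121 in Daxx-null serum, 105, 96.8 and 141 in wild-type retinoic acid, and 15.6, 19.9 and 17.9 in Daxx-null retinoic acid. Every Daxx-null retinoic acid library lay below every library of the other groups.

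Zscan4d (chromosome 7, 11746992 to 11751497), a gene of telomere upkeep in these cells, held 11.1, 14.3 and 2.55 FPKM in wild-type and 9.67, 18.4 and 17.0 in Daxx-null serum, which overlapped. In retinoic acid it held 20.2, 23.1 and 30.2 and 2.67, 3.13 and 2.94, and the difference was -3.75 (SE 0.66, adjusted p = 0.0024). Dux, the factor that starts the programme, was near 0 (mean FPKM of 0.553 and 1.47 in wild-type and Daxx-null serum, 0.222 and 0.0237 after retinoic acid). Pramel6, the member above 0, was lower in both cultures (-3.39 and -1.42, difference 1.97). Reads of the Zscan4, Usp17l and Pramel families may be split among copies that are nearly the same, so single values are uncertain and the 18 are not independent. At a filter of an FPKM of at least 10, 4 differences below 0 were left.

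Of 37 germline genes known to be silenced by DNA methylation, 18 fell in serum and 20 in retinoic acid, with 1 rise in serum and none in retinoic acid. Falls took in 29.2% of all genes in serum and 4.16% in retinoic acid. The difference was below 0 in 11 and above 0 in 3, against 8.48 and 13.2% of all genes, and leaving out Daxx-null retinoic acid replicate 2 or Daxx-null serum replicate 1 took the 11 to 6 and 7. Tex19.1, which guards germ cells against transposons, held 206, 231 and 170.4 FPKM in wild-type and 210.0, 143 and 138 in Daxx-null serum, which overlapped. It held 23.1, 21.5 and 40.0 and 4.96, 3.46 and 2.99 after retinoic acid, a difference of -2.39 (SE 0.35, adjusted p = 8.8e-04), or -2.11 without wild-type replicate 3. Dnmt3l, the cofactor of de novo DNA methylation, held 694, 763 and 689.7 against 413, 439 and 461 in serum and 14.4, 16.3 and 62.2 against 1.74, 3.19 and 1.75 after retinoic acid. Its difference was -2.53 (SE 0.58, adjusted p = 0.0099), and -1.87 without wild-type retinoic acid replicate 3, the highest of its group. Stk31 rose in serum only (2.00, 49.2 ± 5.63 against 12.1 ± 2.39 FPKM). Of the 14 genes called for the difference, all with a promoter in the table, 6 held CACGTG (42.9%, against 8.27% of tested genes with a promoter). The genes are few, several motifs and lists were looked at, and uncalled members of the list were not compared. The share is thus no result about the difference.

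Of the 80 genes with effects of the same sign, 29 had the larger effect after retinoic acid, all lower in Daxx-null cells, and 51 in serum. The 29 went to 17 and 16 without Daxx-null serum replicates 2 and 3 and to 16 without wild-type serum replicate 1. The 51 went to 27 and 20 without Daxx-null retinoic acid replicates 1 and 2, to 32 without Daxx-null serum replicate 2, to 19, 19 and 26 without wild-type retinoic acid replicates 1, 2 and 3, and to 29 without wild-type serum replicate 1. The imprinted Grb10 (chromosome 11, 11830502 to 11927974), an inhibitor of growth factor receptors, held 295, 306 and 214 FPKM in wild-type and 15.4, 24.3 and 23.8 in Daxx-null serum. Wild-type cells held 697, 596 and 749 after retinoic acid, but Daxx-null cells 5.71, 5.18 and 4.04. The genotypes were far apart in both cultures, the effect went from -3.66 to -6.96, and the difference was -3.3 (SE 0.27, adjusted p = 3.2e-05). Nnat, a neuronal membrane protein gene, likewise went from 164, 177 and 97.8 against 7.98, 11.1 and 12.5 to 999.9, 996 and 1054 against 9.10, 16.2 and 9.04, a difference of -2.75 (SE 0.35, adjusted p = 4.1e-04). In both genes wild-type cells went up with retinoic acid and Daxx-null cells stayed near or under their serum level.

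H19, a maternally expressed RNA, held 238, 268 and 146 FPKM against 1.55, 4.57 and 3.14 in serum and 5689.8, 6619 and 8122 against 14.9, 43.4 and 38.4 after retinoic acid. Its difference, -1.85 (SE 0.56, adjusted p = 0.034), lost its call in 11 alternatives, with an adjusted p of up to 0.43. Over the imprinted list the difference was above 0 in 8 and below 0 in 7 of 51 genes (29.4% called, against 21.7% of all genes). Usp29 fell in both cultures, more in serum (-2.13 and -0.71), and Cdkn1c, a cell cycle inhibitor, rose in serum only (547, 709 and 823 against 195, 219 and 186 FPKM, then 1512, 1653 and 1978 against 1842, 1959 and 1456, difference -1.80 (SE 0.22, adjusted p = 2.7e-04)). Igf2, Peg3 and Dlk1 had differences of 0.31, 0.01 and 0.24, none called.

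Of 29 endoderm genes 19 fell in each culture, with 2 rises in serum and none in retinoic acid, and the difference was above 0 in 4 and below 0 in 4. The 8 are 27.6% of the list against 21.7% of all genes, while falls took in 29.2% of all genes in serum and 4.16% in retinoic acid. Without wild-type retinoic acid replicate 3, 22 fell in serum and 11 in retinoic acid, and 9 differences lay above and 4 below 0. Gata4, a regulator of primitive endoderm, held 15.9, 18.9 and 20.7 FPKM in wild-type and 1.74, 2.02 and 2.08 in Daxx-null serum and 92.3, 87.3 and 128 and 42.1, 36.2 and 48.1 after retinoic acid. The groups did not overlap in either culture, and the effect was larger in serum (-2.95 against -1.26, difference 1.69 (SE 0.24, adjusted p = 7.1e-04)). Pdgfra, a receptor of the same lineage, had -2.56 and -1.06. Ttr, the thyroid hormone carrier, held 21.0, 20.5 and 51.7 FPKM in wild-type and 6.43, 7.19 and 7.17 in Daxx-null retinoic acid, against at most 0.177 in any serum library, a difference of -1.72 (SE 0.43, adjusted p = 0.015), or -1.29 without wild-type retinoic acid replicate 3. Afp, the fetal albumin, had a difference of -2.22, or -2.02 without that replicate. Pth1r and Gata6 fell in serum only (-1.59 and -2.26).

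Hox genes, which retinoic acid switches on in order along each cluster, were tested where they passed the filter. Of 35, 15 fell and 1 rose in serum, 3 fell and none rose in retinoic acid, and the difference was above 0 in 8 and below 0 in none. Over all genes 29.2% fell in serum, 4.16% fell in retinoic acid and 13.2% had a difference above 0. The 8 are 22.9% of the list. Hoxa5 held 2.66, 3.55 and 6.39 FPKM in wild-type and 0.243, 1.27 and 1.01 in Daxx-null serum, and 869.8, 849.6 and 753 and 840.1, 806 and 887 after retinoic acid. The genotypes overlapped after induction and were apart in serum, at a few FPKM, with a difference of 1.86 (SE 0.43, adjusted p = 0.01). Hoxb13, at the far end of its cluster, was lower in both cultures (-2.73 and -1.31). The count of 8 was 2 under quantile normalization, 1 in the authors' normalised table and 3 at a pseudocount of 5. It was 5 without Daxx-null retinoic acid replicate 2, Daxx-null serum replicate 1, wild-type retinoic acid replicate 1 or 3, or wild-type serum replicate 3, and 4 without wild-type retinoic acid replicate 2.

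Genes of retinoic acid metabolism and direct targets gave 5 differences above and 2 below 0 of 28 (25% called against 21.7% of all genes, a share near the background). Crabp1 and Crabp2, the carrier proteins of retinoic acid, fell in serum only (-0.89 and -0.78). Stra8, the gatekeeper of meiosis, fell after retinoic acid only: 77.7, 75 and 104 FPKM in Daxx-null against 183, 208 and 256 in wild type there, and 76.8, 77.8 and 80.6 against 108, 104 and 88.3 in serum, a difference of -0.99 (SE 0.20, adjusted p = 0.0047). Of 30 neural progenitor and patterning genes 5 had a difference above and 4 below 0 (30.0% called), of 32 neuron genes 4 above and 1 below (15.6%), against the same 21.7%, so the neuron count was under the background. Zic1, a regulator of dorsal neural tissue, held 205, 178 and 152 FPKM in wild-type and 627, 525 and 216 in Daxx-null retinoic acid, against 0.746, 1.01 and 1.61 and 0.354, 0.922 and 0.258 in serum. Neither effect was called by itself, whereas the difference of 1.93 (SE 0.51, adjusted p = 0.02) was. That call was lost under quantile normalization, with the 2i libraries in the fit, without Daxx-null retinoic acid replicate 2 and without both wild-type replicates 3, with an adjusted p of up to 0.59. Daxx-null retinoic acid replicate 3 was low for Zic1, Hes5 (242, 236 and 113 FPKM) and Nmnat2. Neurog1, which commits cells to neurons, fell in serum only (-1.49 against 0.42), from a wild-type mean of 3.54 FPKM, and Pax6 rose there (1.49 against 0.15).

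Of 34 Nodal, activin and BMP genes 9 rose and 7 fell in serum, against 15 and 29.2% of all genes. In retinoic acid none rose and 2 fell, against 1.31 and 4.16%. The difference was above 0 in 6 and below 0 in 8 (41.2% called, against 21.7% of all genes). Id3, a direct target of BMP, held 43.7, 40.5 and 19.3 FPKM in wild-type and 370.4, 216 and 211 in Daxx-null serum, and 3877, 3940.5 and 3567 and 4060.0, 4318 and 4119 after retinoic acid. The 1 called effect was that in serum, where wild-type replicate 3 was low, and the difference was -2.83 (SE 0.38, adjusted p = 5.1e-04). Bmp4 rose in serum (406, 372 and 403 against 106, 108 and 156 FPKM) and was even after retinoic acid (208, 193 and 221 against 203, 201 and 230.1), a difference of -1.72 (SE 0.18, adjusted p = 1.2e-04), while Bmp7 fell in serum only (-1.77, difference 1.99). Of 27 FGF and ERK feedback genes 6 differences were above and 6 below 0 (44.4%). Myc rose in both, more in serum (2.29 and 0.90, difference -1.39, adjusted p = 0.0041). Of 42 Wnt genes 5 were above and 4 below 0 (21.4%, near the share of all genes), among them the feedback inhibitors Nkd1 (1.85) and Notum (-1.11). Of 22 G2/M genes 6 were above and none below 0 (27.3%), with Aurka, a mitotic kinase, small but opposite in the cultures (-0.18 and 0.24).

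**Figure D4:**
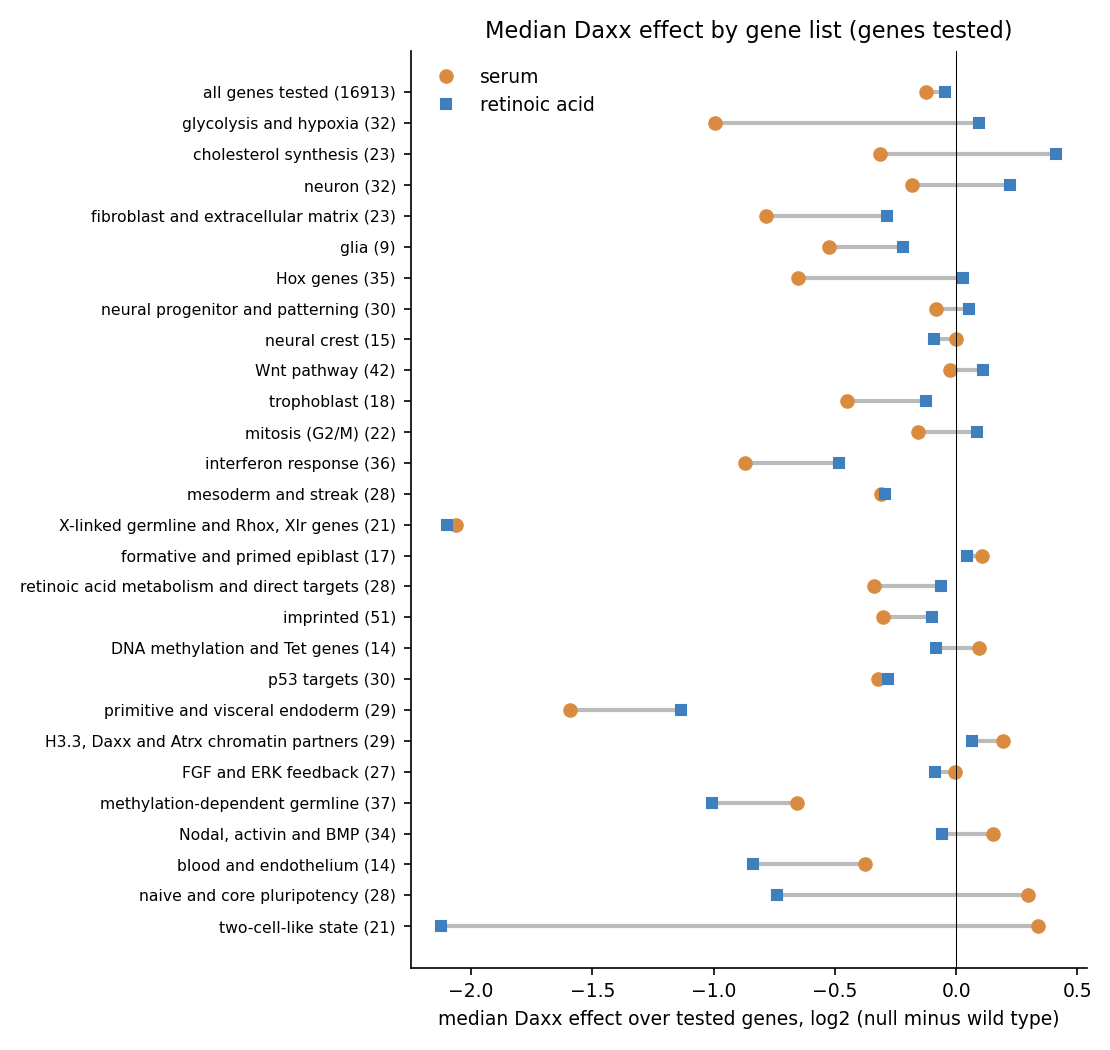
Median Daxx effect (log2, Daxx-null minus wild type) over the tested genes of each list in serum (circles) and retinoic acid (squares), ordered by the median difference, with all 16913 genes at the top. Glycolysis and cholesterol genes moved furthest to the right from serum to retinoic acid, and pluripotency and two-cell-like genes furthest to the left.

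Of the genes of serum only, Ppp1r3b, which targets phosphatase to glycogen, held 33.0, 30.2 and 34.6 FPKM in wild-type and 1.83, 3.72 and 4.32 in Daxx-null serum, and 27.0, 24.9 and 20.8 and 15.8, 19.6 and 21.0 after retinoic acid, where the groups overlapped. Its difference was 2.83 (SE 0.33, adjusted p = 2.4e-04). The X-linked Klhl13, an adaptor for protein degradation in mitosis, held 413, 407 and 305 against 47.8, 91.6 and 79.6 in serum and 86.8, 82.2 and 72.4 against 90.3, 86.3 and 78.6 after retinoic acid (2.47). Nova2, a splicing factor of neurons, and Crtac1, a secreted matrix protein gene, had differences of 2.43 and 2.36. Lrrc31 and Grin1os, both under 4 FPKM after retinoic acid, had 2.87 and 2.68. Grin1os lies antisense to Grin1, and no source used here gives the strand of the counting, so its reads are uncertain.

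Other genes of serum only were higher in Daxx-null cells there. Samd5 held 0.572, 1.09 and 1.3 FPKM in wild-type and 26.8, 25.2 and 18.4 in Daxx-null serum. After retinoic acid it held 37.8, 30.3 and 35.2 and 45.6, 49.4 and 42.1. Daxx-null libraries lay above wild type in both cultures, but the effect after retinoic acid was not called (0.41, adjusted p = 0.28), and the difference was -3.62 (SE 0.29, adjusted p = 3.0e-05). Ccnd2, cyclin D2, was apart in serum and overlapped after retinoic acid (31.2, 41.3 and 15.7 against 198, 234 and 234, then 1100.4, 945 and 908 against 1195, 1212 and 915 FPKM), with a difference of -2.84 (SE 0.37, adjusted p = 4.2e-04).

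Nap1l2, an X-linked histone chaperone of the NAP family, held 53.8, 56.0 and 58.0 FPKM in Daxx-null against 5.20, 8.30 and 3.31 in wild-type serum, and 20.6, 22.1 and 25.1 against 21.7, 20.8 and 21.3 after retinoic acid (-3.21). Grin2c, a subunit of the NMDA glutamate receptor, was high in 1 group only: 102, 97.9 and 96.2 FPKM in Daxx-null serum, against 5.48, 3.56 and 5.04 in wild-type serum and 8.97, 9.31 and 6.83 and 5.11, 7.30 and 10.5 in wild-type and Daxx-null retinoic acid. Its difference, -4.44 (SE 0.33, adjusted p = 2.6e-05), was the lowest among the genes named here. Slc23a1, a vitamin C transporter, had the same shape (85.8, 116 and 106 against 9.80, 10.9 and 8.10 in serum, 3.13, 3.63 and 2.43 against 4.59, 3.58 and 5.42 after retinoic acid, -3.84).

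The 42 genes higher in retinoic acid only (12 such genes without Daxx-null retinoic acid replicate 2) had a median effect of 0.42. Shh, the ventral patterning signal, held 25, 22.6 and 22.9 FPKM in wild-type and 36.3, 45.2 and 48.5 in Daxx-null retinoic acid and under 0.1 in every serum library. Its difference, 0.85 (SE 0.25, adjusted p = 0.03), lost its call in 11 alternatives, with an adjusted p of up to 0.23. Osr1, a regulator of kidney and heart mesoderm, held 112, 119 and 99.5 and 159.9, 179 and 174 (0.92). Cdk18, Mark1 and Habp4 had differences of 0.81, 0.71 and 0.62.

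The 188 genes lower in retinoic acid only had a median effect of -1.38. Hopx, a homeodomain protein gene of stem and progenitor cells, held 6.22, 6.26 and 19.9 FPKM in wild-type and 1.13, 1.08 and 0.586 in Daxx-null retinoic acid, against 23.9, 26.9 and 20.3 and 27.0, 22.3 and 22.3 in serum. Triml2 held 8.72, 10.2 and 37.0 and 2.08, 2.18 and 1.33 after 615, 575 and 682 and 777, 634 and 639, lower after retinoic acid in both genotypes. Wild-type replicate 3 was high for both genes, and their differences of -2.80 and -2.86 were -2.27 and -2.22 without it. Rpl39l, a ribosomal protein gene of the testis, had -2.59, with near-identical copies elsewhere in the genome. Nepn, a proteoglycan gene of the gut endoderm, held 43.6, 33.3 and 45.6 and 13.5, 15.7 and 15.1 and was at or near 0 in serum (-1.37).

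Genes of the Daxx, Atrx and H3.3 machinery gave 3 differences above and 6 below 0 of 29 tested (31.0% called, against 21.7% of all genes). Pml, the scaffold of the nuclear bodies where Daxx resides, held 669.6, 722 and 722 FPKM in Daxx-null against 426, 444 and 455 in wild-type serum, and 89.2, 89.3 and 85.2 against 95.3, 93.1 and 84.6 after retinoic acid, a difference of -0.72 (SE 0.09, adjusted p = 2.9e-04). Atf7ip, a partner of the H3K9 methyltransferase Setdb1, rose in serum only (0.77 against 0.01), as did the H3 chaperone Asf1a (0.74 against 0.09), whose paralogue Asf1b fell there (-0.44). Zfp809, which leads Trim28 to leukaemia proviruses, fell after retinoic acid only: 47.4, 40.8 and 36.3 against 66.9, 56.5 and 67.6 FPKM there and 125, 137 and 135 against 121, 123 and 112 in serum, a difference of -0.77 (SE 0.15, adjusted p = 0.0037). Atrx, Hira and H3f3b had differences of -0.43, -0.01 and -0.04, none called. Of 14 DNA methylation and Tet genes, 4 were below 0 (Dnmt3l, Tet2, Zfp57 and Mbd1) and none above (28.6%).

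In the remaining lists, the share called was near the 21.7% of all genes for interferon response (19.4%), p53 (20%), neural crest (20%), mesoderm and streak (21.4%) and epiblast genes (23.5%), so these counts are no result about the lists. It was furthest from it for blood and endothelium genes (57.1%). Differences above and below 0 numbered 4 and 3 of 36 interferon response genes, 2 and 4 of 30 p53 targets, 3 and 5 of 14 blood and endothelium genes, 3 and 3 of 18 trophoblast genes, and 1 and 5 of 28 mesoderm and streak genes. They numbered 5 and 1 of 23 fibroblast and extracellular matrix genes, 2 and 4 of 21 X-linked germline genes, 2 and 1 of 15 neural crest genes, 1 and 0 of 9 glia genes, and 1 and 3 of 17 formative and primed epiblast genes. B2m, the light chain of MHC class I, fell in serum (-1.31) with -0.32 after retinoic acid, a difference of 0.99. Tal1, a blood regulator, rose in serum only (1.71, difference -2.36), whereas Cd34 fell after retinoic acid only (-2.28). Perp and Pmaip1, both targets of p53, rose in serum only (1.10 and 1.03).

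Repeat subfamilies were compared as shares of the repeat reads. The difference was called for 57 of 862 tested (6.61%), 25 above 0 (2.9%) and 32 below 0 (3.71%). In serum 194 were called (22.5%), 50 higher (5.8%) and 144 lower (16.7%), and in retinoic acid 54 (6.26%), 7 higher (0.812%) and 47 lower (5.45%). Of the 57, 40 were called in serum only, 7 in retinoic acid only, 7 with opposite signs, 1 with the same sign and 2 in neither. These classes turned on the setting. Serum only ran from 22 without wild-type serum replicate 3 or wild-type retinoic acid replicate 2 to 104 with rRNA taken out of the scaling, and was 59 under quantile normalization. It was 23 without Daxx-null retinoic acid replicate 2, Daxx-null serum replicate 3 or wild-type serum replicate 2, and 25 without Daxx-null serum replicate 2 or wild-type serum replicate 1. Opposite signs numbered 1 under quantile normalization and 1 without Daxx-null retinoic acid replicate 3. They numbered 3 scaled to gene depth, 4 without Daxx-null retinoic acid replicate 1, and 3, 4 and 3 without wild-type retinoic acid replicates 1, 2 and 3. Retinoic acid only numbered 1 under median-ratio scaling, 2 without Daxx-null retinoic acid replicate 3, 3 without Daxx-null serum replicate 2 or 3, 2, 1 and 2 without the wild-type retinoic acid replicates, and 4 and 3 without wild-type serum replicates 1 and 2. Young L1 elements, a list of LINE subfamilies, had 5 of 13 tested differences below 0 and none above (38.5% called), and leukaemia virus and VL30 elements 8 below and 1 above of 56 (16.1%), against 6.61% of all subfamilies. SINE B1 and B2 elements had none of 19 and satellites none of 5.

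RLTR4_MM-int, the body of murine leukaemia virus copies, held 24.4, 26.6 and 24.4 FPKM in wild-type and 59.8, 59.0 and 60.0 in Daxx-null serum. After retinoic acid it held 7.47, 7.16 and 8.34 and 5.14, 5.50 and 4.69. Daxx-null libraries were all higher in serum and all lower after retinoic acid, with effects of 1.23 and -0.54 and a difference of -1.76 (SE 0.09, adjusted p = 6.4e-06). Its LTR, RLTR4_Mm, had 1.3 and -0.58. L1Md_T, a young L1 family, held 2.38, 2.81 and 2.17 against 7.14, 6.43 and 6.77 FPKM in serum and 3.08, 2.94 and 3.26 against 2.61, 2.10 and 2.15 after retinoic acid (-1.66 (SE 0.13, adjusted p = 5.8e-05)), and L1Md_Gf shared its signs (1.2 and -0.60). MERVL-int, the retrovirus of the two-cell-like state, rose in serum only: 16.7, 23.3 and 23.2 against 12.9, 13.4 and 7.04 FPKM there, and 12, 11.8 and 11.1 against 15.9, 15.6 and 19.7 after retinoic acid. Its difference, -1.45 (SE 0.31, adjusted p = 0.027), lost its call in 8 alternatives, with an adjusted p of up to 0.075.

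Among differences above 0, ETnERV3-int, an early transposon of the ERVK class, held 1.28, 1.80 and 1.84 FPKM in Daxx-null against 6.13, 6.10 and 5.66 in wild-type serum, and 17.5, 20.5 and 21.6 against 21.8, 21.4 and 14.7 after retinoic acid (1.64 (SE 0.22, adjusted p = 0.0018)). The DNA transposon Ricksha_c (1.82) and the LTR RLTR13B2 (1.57) were also lower in serum only, and RLTR27 reversed (-0.72 and 0.61). IAP elements, the retroviruses most often linked to Daxx and Atrx, gave 1 difference below 0 of 16 (IAPLTR3, -0.85), which is 6.25% against 6.61% of all subfamilies and so no result about IAP. ETn with MusD gave 1 above and 2 below of 4, against 2.9 and 3.71% of all subfamilies. LSU-rRNA_Hsa, ribosomal RNA, reversed as well (-0.92 and 0.55). Its difference was not called with the 2i libraries in the fit (adjusted p = 0.12). The RNA was depleted of rRNA, so this level may also reflect what the depletion left behind, which was not tested.

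The rRNA share of the repeat reads moved with the repeat result. It was 13.8, 11.2 and 11% in wild-type serum, 8.42, 6.57 and 6.59% in Daxx-null serum, 5.25, 5.69 and 5.35% in wild-type retinoic acid, and 7.99, 8.09 and 9.23% in Daxx-null retinoic acid. With rRNA taken out of the scaling, an alternative chosen after seeing the data, the difference was above 0 in 98 and below 0 in 23, so that 81.0% of calls were above 0 instead of 43.9%. Scaling to gene depth gave 13 and 26 (33.3% above 0). In serum calls without rRNA were 12.2% higher, against 45.8% under quantile normalization and 42.9% scaled to gene depth, and in retinoic acid 28.1% without rRNA and 33.3% under quantile normalization. In serum median-ratio scaling gave 100 higher and 70 lower (58.8% higher instead of 25.8%), and in retinoic acid 10 and 13 (43.5% instead of 13.0%). The counts also turned on single libraries. The difference above 0 fell to 15 without Daxx-null retinoic acid replicate 2, Daxx-null serum replicate 3, wild-type retinoic acid replicate 2 or wild-type serum replicate 2. That below 0 fell to 21, 18, 17, 17, 14, 19 and 21 without Daxx-null retinoic acid replicates 2 and 3, Daxx-null serum replicates 2 and 3, wild-type retinoic acid replicate 2 and wild-type serum replicates 1 and 2. Serum repeats higher numbered 31 and 33 without Daxx-null and wild-type serum replicate 3, and lower 95 and 89 without Daxx-null serum replicates 1 and 3. In retinoic acid repeats higher numbered 1, 4 and 0 without Daxx-null retinoic acid replicates 1, 2 and 3, 4 without Daxx-null serum replicate 2 or 3 or wild-type serum replicate 2, and 1, 0 and 2 without wild-type retinoic acid replicates 1, 2 and 3. Repeats lower there numbered 22, 27 and 5 without the Daxx-null retinoic acid replicates 1, 2 and 3, 86, 23 and 22 without the Daxx-null serum replicates, 7, 9 and 8 without the wild-type retinoic acid replicates, and 29 and 19 without wild-type serum replicates 1 and 2. RLTR4_MM-int, RLTR4_Mm, L1Md_T and L1Md_Gf kept a called difference below 0 in all alternatives run.

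**Figure D5:**
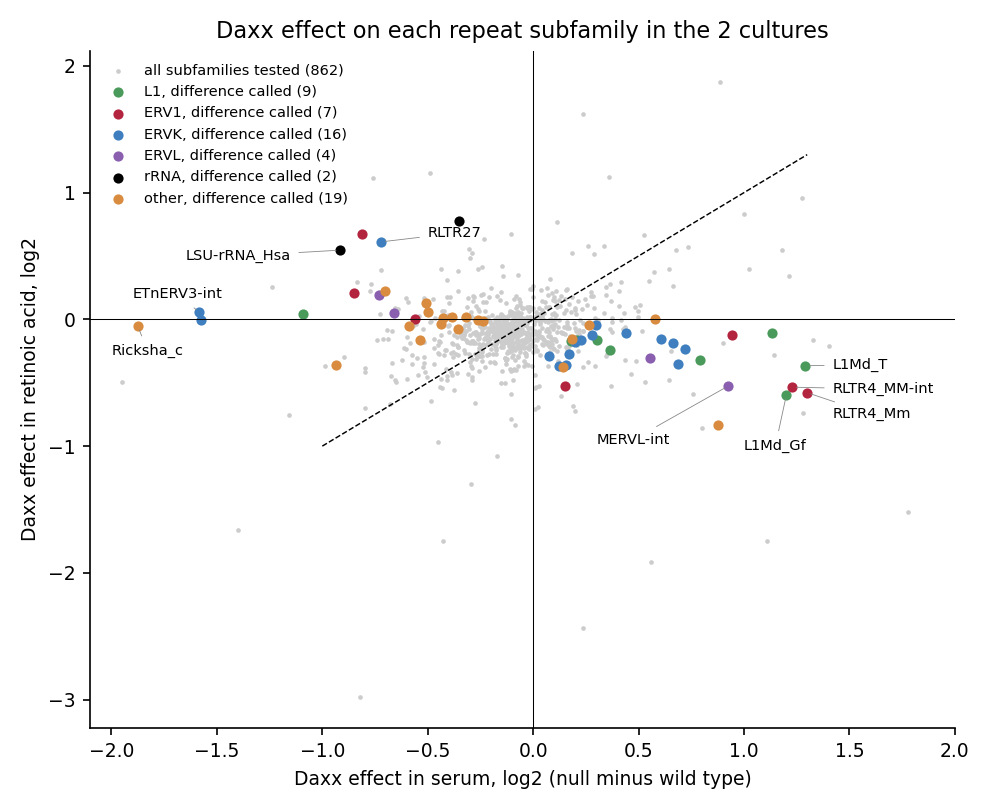
Each point is 1 of the 862 repeat subfamilies tested, with the Daxx effect in serum on the x axis and in retinoic acid on the y axis (log2, Daxx-null minus wild type), coloured by family where the difference between cultures was called, and the dashed line marks equal effects. RLTR4_Mm, RLTR4_MM-int, L1Md_T and L1Md_Gf lie at the lower right, higher in Daxx-null serum and lower after retinoic acid, and rRNA and RLTR27 at the upper left.

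Just inside the threshold of an adjusted p under 0.05 lay Zfp951 (difference -1.2), Tube1 (0.55) and Gpatch8 (0.37), and just outside it Ggt1 (0.95), Gpr146 (0.73) and Htatsf1 (0.25).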

How the data were processed

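Values are FPKM per RefSeq gene and per repeat subfamily, deposited by the authors. The submitters' processing notes name build mm9, HOMER 4.8, limma and Bowtie2 2.2.6. The values appear to be scaled to a total of 10 M in place of the usual 1 M (inferred from the values). Depth on that scale sets the precision of low genes. Per the labels RNA was enriched by oligo-dT and depleted of rRNA, whereas the series design speaks of rRNA depletion of total RNA. The authors' deposited log2 table, quantile normalized, served as an alternative.

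Genes that reached an FPKM of 1 in 3 or more of the 12 libraries were tested on log2(FPKM + 0.5) with limma 3.58.1 in R 4.3.3, with a variance trend and 8 residual degrees of freedom. Repeats above 0 in at least 6 libraries were tested on log2(FPKM + 0.551), the 5th percentile of values above 0. A call is a Benjamini-Hochberg adjusted p under 0.05 over all features. Fold changes on this scale understate low genes. The members and gene lists were chosen with earlier results of these data known. Named genes were the extreme called differences of each class with a group mean FPKM of at least 20, plus up to 3 called genes per list. Others were named after seeing their values. Scripts were tested on simulated data. Some items are not reported here.

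Same-numbered replicates did not deviate together (correlations -0.0487 to 0.0974), so they were not paired.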

Additional observations from a re-analysis of the deposited data

Results flagged for a closer look

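The effect of Daxx loss differed between the 2 cultures, by a test of the difference itself, for 3669 genes and 57 repeat subfamilies. The following are features named by the rule whose effect was called in both cultures with opposite signs and whose genotypes did not overlap in either, with the difference in log2 units. Features with an uncalled effect in 1 culture, such as MERVL-int (-1.45), ORSL-2a (-1.71) and Pou5f1 (-3.15), are not among them. It was above 0 for Nmnat2 (2.41), Arhgdig (1.16), Msmo1 (1.09), Nuak2 (1.3), Dhcr7 (1.26), Aurka (0.42), LSU-rRNA_Hsa (1.46) and RLTR27 (1.33). It was below 0 for Lgals9 (-3.67), Epas1 (-2.78), Zfp936 (-2.95), Meox1 (-2.58), Rbm47 (-2.59), Dppa2 (-2.89), Zfp42 (-2.11) and Ddx58 (-1.32). It was also below 0 for RLTR4_Mm (-1.88), L1Md_Gf (-1.80), RLTR4_MM-int (-1.76) and L1Md_T (-1.66). The value of LSU-rRNA_Hsa may also reflect rRNA left by the depletion, and its call was lost with the 2i libraries in the fit. The retinoic acid effects of Lgals9, Epas1, Rbm47 and Ddx58 were smaller without wild-type retinoic acid replicate 3, and that of Ddx58 was then not called. Groups of 3 libraries are too small for a test of single outlying samples.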

How the results depend on the processing

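Of 111 named features with a called difference 64 kept their call in every alternative run, 47 lost it in at least 1 and none reversed. Daxx, named but not called, ran from -0.11 to 0.23. Adding the 6 libraries of 2i gave differences of 889 genes higher and 615 lower, 1678 genes higher in serum, and 44 higher and 405 lower in retinoic acid. It gave 1293 genes of serum only, 119 of retinoic acid only and 18 of opposite sign. For repeats it gave differences of 4 and 14, 29 and 61 in serum, and 1 and 9 in retinoic acid. For lists it gave 17 glycolysis, 8 cholesterol, 1 Hox and 7 germline genes. Genes higher in retinoic acid numbered 136 without a variance trend, and 61 with 293 lower when each culture was fitted alone. An interval bound of 0.5 left 1944 genes of serum only and 85 of retinoic acid only.

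For repeats, scaling to gene depth gave 13 differences higher, 56 lower in serum, and 0 higher and 15 lower in retinoic acid. Leaving rRNA out gave 98 differences higher, 289 lower in serum and 23 lower in retinoic acid. Quantile normalization gave 81 higher in serum, and 2 higher and 4 lower in retinoic acid. Median-ratio scaling gave 100 higher and 70 lower in serum and 13 lower in retinoic acid. A pseudocount 10 times larger gave 11 higher in retinoic acid. Two-cell-like genes numbered 4 at an FPKM of at least 10. Hox genes numbered 3 at a pseudocount of 5, 2 under quantile normalization, 1 in the authors' normalised table and 4 without both wild-type replicates 3. Germline genes numbered 6 at that pseudocount and 7 without those replicates. Both replicates 3, rRNA, the fits of each culture alone and the list counts were alternatives chosen after seeing the data. The causes were not tested.

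Leaving out 1 library at a time, differences ranged from 1603 to 2144 genes higher and 1081 to 1385 lower, serum genes from 2095 to 2637 and 4097 to 5101, and retinoic acid genes from 71 to 330 and 373 to 799. Repeat differences ranged from 15 to 24 higher and 14 to 40 lower, serum repeats from 31 to 55 and 89 to 162, and retinoic acid repeats from 0 to 10 and 5 to 86. Classes ranged from 2368 to 3053 (serum only), 131 to 247 (retinoic acid only) and 34 to 121 (opposite sign). Lists ranged from 21 to 28 (glycolysis), 15 to 17 (cholesterol), 11 to 14 (pluripotency), 16 to 18 (two-cell-like), 4 to 10 (Hox) and 6 to 11 (germline). With the replicate number as a block, differences were called for 2224 genes higher and 1429 lower and for 22 and 25 repeats. The numbers do not pair the samples. Depth limits genes of a few FPKM.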
